A study of Homo sapiens with 12 samples.

Results

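Small heat-shock proteins and the chaperones that heat-shock factor 1 (HSF1) switches on were followed as 10 genes, CRYAB, HSPB1, HSPB8, BAG3, DNAJB1, HSPA8, HSP90AA1, HSPH1, HSPE1 and HSF1, out of 18404 genes measured. They were picked by symbol from a list, and each had 1 probe set on the array. The list was drawn up with the rise of CRYAB after FLI1 shRNA already known, so that comparison is a description with no test for the 10 genes. Every other comparison uses adjusted p-values over all 18404 genes. The 10 genes and the lists of related genes were chosen with earlier results of these data known. Calls among them are therefore descriptive and not independent tests. All arrays were of A673, a line from an Ewing sarcoma in which the fusion gene EWS-FLI1 is expressed, and the study asked whether a low dose of the DNA-binding drug actinomycin D acts on genes that EWS-FLI1 controls.

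The groups held 2 arrays each, 12 in all. A673 cells infected with a lentivirus expressing FLI1 shRNA were compared with cells infected with a lacZ shRNA virus, which targets a bacterial gene that human cells lack. Both were labelled 48 h. The methods of the study give 24 h with virus and then 48 h of selection in puromycin before harvest, whereas its results give 48 h after infection. The drug series held untreated cells at 0 h and cells kept for 24 h with the solvent DMSO, with 5 nM actinomycin D or with 50 nM actinomycin D. Each shRNA group came from 1 shRNA construct. All groups were 1 cell line, and none was exposed to heat. Values are log2 signals from Affymetrix HuGene 1.0 ST arrays, so a difference of 1 is a 2-fold change. Probe sets differ in brightness, so the 10 genes were not ranked by level, and a place relative to the median of an array describes the probe set's signal alone. No source used here states whether the arrays of a group came from separately grown cells, so p-values reflect array-to-array spread that could be technical.

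Small heat-shock proteins such as CRYAB (alphaB-crystallin), HSPB1 (HSP27) and HSPB8 bind unfolding proteins without ATP and hold them in a state from which the HSP70 system can refold them. HSPA8 is the constitutive HSP70 of the cytosol. DNAJB1 is a J-domain protein that delivers clients to HSP70 and stimulates its ATPase, whereas HSPH1 and BAG3 are nucleotide exchange factors that release them. BAG3 also ties HSP70 to HSPB8 and to autophagy. HSP90AA1 is the stress-inducible cytosolic HSP90, HSPE1 is the lid of the mitochondrial chaperonin HSPD1, and HSF1 is the transcription factor that binds inverted GAA repeats, the heat-shock elements, when unfolded proteins draw chaperones away from it.

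The promoter stretches of 5 of these genes are shown because they carry the letters of a heat-shock element, the feature that links the genes to HSF1. Windows of 300 bases around annotated start sites (250 before and 50 after, RefSeq, GRCh38.p14) were found for 8 of the 10 genes, 11 windows in all, and not for CRYAB and HSF1. The letters searched were GAANNTTC and TTCNNGAA, each of which reads the same on both strands and can overlap the other. At least 1 occurred in 6 of the 11 windows, belonging to 5 of the 8 genes, against 13.5% of all 35116 windows and 16.2% of all 27305 genes with a window. Capitals mark the matching letters in the stretches below, which run 5′ to 3′ on the strand of the gene and end before the start site. The HSPB1 stretch lies at chr7:76302471-76302518 (+ strand), the HSPB8 stretch at chr12:119178823-119178870 (+ strand), the DNAJB1 stretch at chr19:14518417-14518494 (− strand), the HSPA8 stretch at chr11:123062159-123062386 (− strand) and the HSP90AA1 stretch at chr14:102087085-102087152 (− strand).
HSPB1: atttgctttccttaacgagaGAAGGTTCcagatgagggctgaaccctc
HSPB8: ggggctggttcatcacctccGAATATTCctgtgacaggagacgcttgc
DNAJB1: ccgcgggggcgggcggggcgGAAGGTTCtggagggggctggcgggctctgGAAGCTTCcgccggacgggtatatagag
HSPA8: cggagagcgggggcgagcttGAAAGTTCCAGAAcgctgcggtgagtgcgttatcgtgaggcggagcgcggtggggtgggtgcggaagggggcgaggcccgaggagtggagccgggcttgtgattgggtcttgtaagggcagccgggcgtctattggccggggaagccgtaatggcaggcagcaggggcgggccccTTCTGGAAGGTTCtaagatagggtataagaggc
HSP90AA1: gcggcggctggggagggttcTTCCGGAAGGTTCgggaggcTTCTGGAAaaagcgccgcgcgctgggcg

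The upstream match began 182 bases before the start site in HSPB1 and 88 before it in HSPB8. DNAJB1 has 3 annotated start sites, and the window shown, of the second, held matches that began 77 and 47 bases upstream. The longer form, in which a further inverted unit follows, occurred in 2 windows, those of HSPA8 and of the second annotated start site of HSP90AA1, against 0.49% of all windows. HSPA8 held it at 2 places, from 230 and from 55 bases upstream. HSP90AA1 held it from 88 bases upstream, with a further 8-letter match 68 bases upstream. The windows of BAG3, HSPH1 and HSPE1 held none of these letters, which says nothing about elements elsewhere in those genes. A match is a run of letters, and binding of HSF1 was not measured on these arrays.

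The arrays were alike in overall signal. Array medians over all probe sets lay between 6.67 and 6.83 and those over the 18404 genes between 7.36 and 7.47, and the arrays of a group correlated at 0.994 to 0.996. FLI1, the target of the shRNA, fell by 1.35 log2 units after FLI1 shRNA, with 39.2% of its signal left (SE 0.09, adjusted p = 5.39e-06, limma). It was also lower at 50 nM actinomycin D, at 7.71 and 7.60, against 8.50 and 8.55 at 5 nM and 8.59 and 8.61 with DMSO. Of 9 Ewing sarcoma markers measured, 8 lay above the gene median on both arrays in 5 groups and 7 with FLI1 shRNA. None of 6 blood cell markers did, at most 1 of 7 endothelial markers did, and 2 of 8 epithelial and 2 to 3 of 14 skeletal muscle markers did. After FLI1 shRNA 8 of the 9 Ewing sarcoma markers fell and 0 rose, against 9.28% and 14.6% of all genes. Their median difference was −0.72, against −0.01 over all genes. NKX2-2, STEAP1, LOXHD1 and NPY1R among them are also on the study's own list of genes lowered by this knock-down. The summed linear signal of the muscle markers was 1332 to 1398 with FLI1 shRNA, against 1555 to 1649 with lacZ shRNA. Of the 14, PAX7 alone passed, lower by 0.91 (SE 0.10, adjusted p = 1.01e-04), and without it the sums overlapped, at 1092 to 1150 with FLI1 shRNA, against 1074 to 1216 with lacZ shRNA.

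After FLI1 shRNA, CRYAB stood far above its level in every other group, while the other chaperones moved little and in both directions. The log2 signal of CRYAB was 8.79 and 8.88 with FLI1 shRNA, against 6.23 and 6.20 with lacZ shRNA, a difference of 2.62 (SE 0.15) or 6.15-fold. Across the other groups it lay between 5.63 and 6.44, below the median of the genes on the array. CRYAB is abundant in lens and muscle and binds desmin and other filaments. DES, the desmin gene, read 6.83 and 6.96 with FLI1 shRNA, against 6.84 and 6.94 with lacZ shRNA, so that these arrays overlapped.

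HSPB1 followed at a distance. It read 12.25 and 12.20 with FLI1 shRNA, against 11.88 and 11.69 with lacZ shRNA, a difference of 0.44 (SE 0.08), and the arrays did not overlap. The lacZ shRNA arrays of HSPB1 also lay below its untreated arrays, at 11.90 and 11.98, a difference of −0.16 (SE 0.08) that did not pass. HSPB8 was lower, at 4.57 and 4.73 with FLI1 shRNA, against 5.19 and 4.91 with lacZ shRNA, a difference of −0.40 (SE 0.21). Its mean, like that of CRYAB, lay below the 40th percentile of all genes, and its standard error was the largest of the 10. The 3 small heat-shock proteins thus differed from their controls by 2.62, 0.44 and −0.40.

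The HSP70 machinery showed smaller differences. DNAJB1 read 9.63 and 9.67 with FLI1 shRNA, against 9.46 and 9.48 with lacZ shRNA (difference 0.18, SE 0.08), and BAG3 read 9.94 and 9.95, against 9.86 and 9.92 (0.05, SE 0.08). HSPH1 was lower, at 11.38 and 11.40 with FLI1 shRNA, against 11.66 and 11.60 with lacZ shRNA (−0.24, SE 0.07). HSPA8 read 13.50 and 13.55 with FLI1 shRNA, against 13.63 and 13.68 with lacZ shRNA (−0.13, SE 0.06). These 4 genes had arrays that did not overlap between the groups, yet no difference among them exceeded 0.25 in size.

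HSP90AA1 read 12.34 and 12.30 with FLI1 shRNA, against 12.42 and 12.43 with lacZ shRNA (−0.10, SE 0.07). HSPE1 overlapped, at 9.14 and 9.02 with FLI1 shRNA, against 9.22 and 9.05 with lacZ shRNA (−0.06, SE 0.11). HSF1 itself read 9.78 and 9.73 with FLI1 shRNA, against 9.72 and 9.79 with lacZ shRNA, a difference of 0.00 (SE 0.07). Over the 10 genes, both FLI1 shRNA arrays were above both lacZ shRNA arrays for 4 and below them for 4, and for 2 they overlapped. Over all genes 33.5% were separated upwards and 29.7% downwards, so these counts do not set the 10 genes apart. Their median difference was −0.03, against −0.01 over all genes. The sign for HSPE1 and for HSF1 turned when a single array was left out or, for HSPE1, when arrays were centred on the median ribosomal protein level (0.0055), but not on deviations (−0.055).

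**Figure D1:**
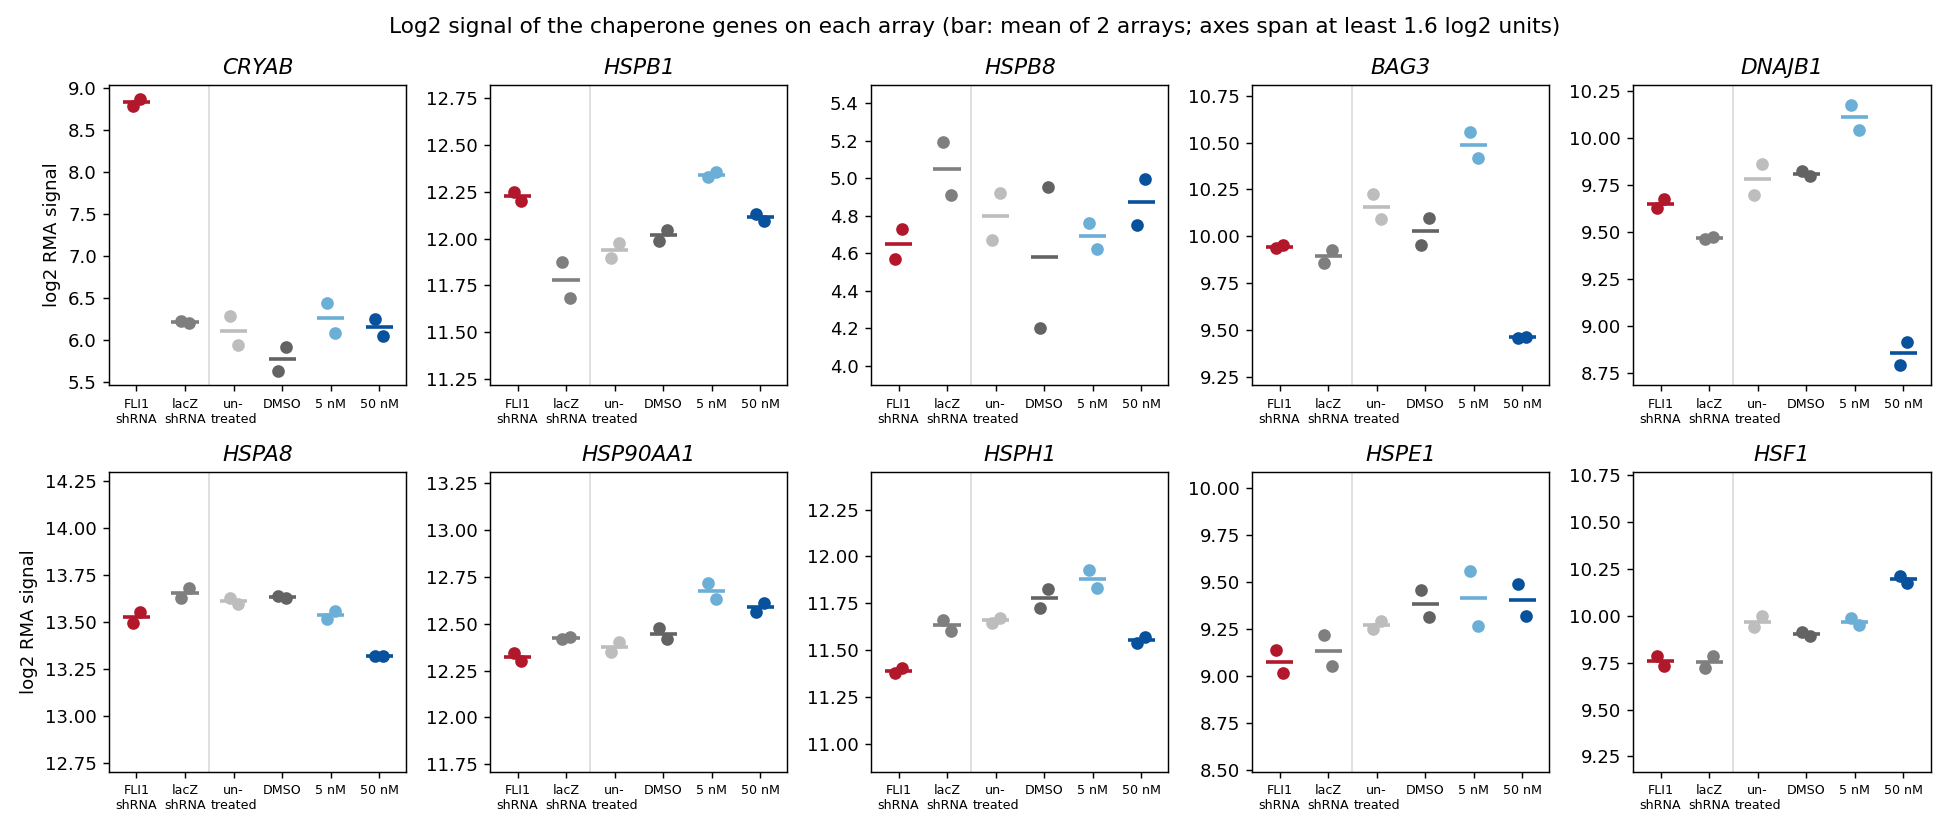
Log2 RMA signal of each of the 10 chaperone genes (1 panel a gene, y axis) on every array, with FLI1 shRNA and lacZ shRNA at the left of each panel and untreated, DMSO, 5 nM and 50 nM actinomycin D at the right. Points are arrays and bars the mean of 2. CRYAB reads 8.79 and 8.88 with FLI1 shRNA and at most 6.44 elsewhere, and BAG3 and DNAJB1 are highest at 5 nM and lowest at 50 nM.

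The chaperone and filament genes around them were counted for the same comparison, in lists chosen with earlier results of these data known. Of 11 measured filament and autophagy partners of BAG3 and the small heat-shock proteins, 6 rose after FLI1 shRNA and 0 fell, also with either centring on ribosomal protein genes. Over all genes 14.6% rose and 9.28% fell, so that 61.2% of the genes that passed were higher, against 74.3% with centring on the median ribosomal protein level. LMNA, the nuclear lamin A/C gene, rose by 0.80 (SE 0.09, adjusted p = 8.92e-05), SQSTM1, the autophagy receptor p62, by 0.51 (SE 0.07, adjusted p = 5.37e-04) and SYNPO2, a Z-disc partner of BAG3 in muscle, by 0.49 (SE 0.14, adjusted p = 0.032). The median of the list was 0.32. LMNA was also lower with lacZ shRNA than in untreated cells, by 0.41 on ribosomal protein deviations (adjusted p = 0.0289, limma). With centring on the median level it was lower there by 0.55 (adjusted p = 0.00648, limma).

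None of 5 other small heat-shock proteins passed after FLI1 shRNA (limma, 0 also at an unadjusted p under 0.05), with differences between −0.19 and 0.25. Of 21 other genes that heat induces through HSF1, 3 rose, 4 fell and 14 missed the threshold, and their median was 0.08. With arrays centred on the median ribosomal protein level the split was 6 higher and 2 lower, and centred on ribosomal protein deviations it was 4 and 4. In this comparison the median-level centring left the ribosomal protein genes themselves at a median difference of 0.06. That median was −0.002 as deposited and −0.0006 on deviations. The risers were SERPINH1, the collagen chaperone HSP47 (0.68, SE 0.08), DNAJB4, a J-domain protein (0.68, SE 0.09), and HMOX1, or heme oxygenase 1 (0.40, SE 0.12). CHORDC1 and FKBP4, co-chaperones of HSP90, fell by 0.48 (SE 0.10) and 0.38 (SE 0.09). HSPD1, whose protein works with HSPE1 and whose gene lies next to it, fell by 0.23 (adjusted p = 0.0335) but not with arrays centred on the median ribosomal protein level.

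In the endoplasmic reticulum 3 of 16 chaperones rose after FLI1 shRNA and 0 fell, against 6 and 0 with centring on the median ribosomal protein level. HSPA5, the HSP70 of that compartment, rose by 0.49 (SE 0.06, adjusted p = 2.26e-04), and DNAJC3, one of its J-domain partners, by 0.58 (SE 0.13). SDF2L1 rose by 0.24, but not with centring on ribosomal protein deviations. Among other HSP70 and HSP110 genes, HSPA2 rose by 0.55 (SE 0.10) and HSPA13 by 0.44 (SE 0.09), and the other 7 of 9 did not pass. SIRT1, a deacetylase that acts on HSF1, fell by 0.64 (SE 0.08, adjusted p = 1.77e-04), and HSBP1, which binds HSF1, rose by 0.29.

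Actinomycin D slides between DNA base pairs and blocks RNA polymerases, RNA polymerase I at the lowest doses. At 5 nM against DMSO, 5 of the 10 chaperone genes rose and 0 fell, against 30.3% and 23% of all genes, but with arrays centred on ribosomal protein genes none rose. The risers were CRYAB, HSPB1, BAG3, DNAJB1 and HSP90AA1, by 0.23 to 0.49 log2 units.

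BAG3 read 10.22 and 10.09 in untreated cells, 9.95 and 10.10 with DMSO, 10.56 and 10.42 at 5 nM and 9.46 and 9.47 at 50 nM. It rose by 0.46 at 5 nM (SE 0.08, adjusted p = 7.05e-04) and fell by 0.56 at 50 nM (SE 0.08, adjusted p = 2.47e-04). Its arrays at 5 nM were its highest of the 12 and those at 50 nM its lowest. DNAJB1 read 9.70 and 9.86 in untreated cells, 9.82 and 9.80 with DMSO, 10.18 and 10.04 at 5 nM and 8.79 and 8.91 at 50 nM. It rose by 0.30 at 5 nM (SE 0.08, adjusted p = 0.0103) and fell by 0.96 at 50 nM (SE 0.08, adjusted p = 5.22e-06), which left 0.51 of its DMSO signal. DNAJB1, like BAG3, was above every other array at 5 nM and below every other array at 50 nM.

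HSPB1 read 11.90 and 11.98 in untreated cells, 11.99 and 12.05 with DMSO, 12.33 and 12.35 at 5 nM and 12.13 and 12.09 at 50 nM. It rose by 0.32 at 5 nM (SE 0.08, adjusted p = 0.00518), and at 50 nM its difference from DMSO was 0.10 (SE 0.08, adjusted p = 0.322). CRYAB read 6.28 and 5.93 in untreated cells, 5.63 and 5.92 with DMSO, 6.44 and 6.08 at 5 nM and 6.25 and 6.05 at 50 nM. It rose by 0.49 at 5 nM (SE 0.15, adjusted p = 0.0186), although both drug groups overlapped the untreated arrays. HSPB8 read 4.67 and 4.92 in untreated cells, 4.20 and 4.95 with DMSO, 4.76 and 4.62 at 5 nM and 4.75 and 5.00 at 50 nM, and did not pass at either dose. One of its DMSO arrays lay below and the other above every 5 nM array.

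The HSP90 and HSP70 genes split. HSP90AA1 read 12.35 and 12.40 in untreated cells, 12.48 and 12.42 with DMSO, 12.72 and 12.63 at 5 nM and 12.56 and 12.61 at 50 nM, and it rose by 0.23 at 5 nM (SE 0.07, adjusted p = 0.016). HSPA8 read 13.63 and 13.60 in untreated cells, 13.64 and 13.63 with DMSO, 13.52 and 13.56 at 5 nM and 13.32 and 13.32 at 50 nM. HSPA8 fell by 0.31 at 50 nM (SE 0.06, adjusted p = 0.0025), and its difference at 5 nM was −0.10 (SE 0.06). The constitutive HSP70 gene was thus lower than the untreated and DMSO arrays on all 4 drug arrays.

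HSPH1 read 11.64 and 11.67 in untreated cells, 11.73 and 11.83 with DMSO, 11.93 and 11.83 at 5 nM and 11.54 and 11.57 at 50 nM, and fell by 0.22 at 50 nM (SE 0.07, adjusted p = 0.0232). HSF1 read 9.94 and 10.00 in untreated cells, 9.91 and 9.89 with DMSO, 9.99 and 9.95 at 5 nM and 10.21 and 10.17 at 50 nM. HSF1 rose by 0.29 at 50 nM (SE 0.07, adjusted p = 0.00449), but not with arrays centred on ribosomal protein genes. HSPE1 read 9.25 and 9.29 in untreated cells, 9.46 and 9.32 with DMSO, 9.56 and 9.27 at 5 nM and 9.49 and 9.32 at 50 nM, and its drug arrays overlapped the DMSO arrays at both doses.

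The 5 nM rises rest on how the arrays are scaled. At 5 nM the median of all genes stood 0.12 above DMSO and that of 58 cytoplasmic ribosomal protein genes 0.29 above it, so the rises of CRYAB, BAG3, HSPB1, DNAJB1 and HSP90AA1 exceeded the all-gene median by 0.37, 0.34, 0.20, 0.18 and 0.11. With each array centred on the median level of the ribosomal protein genes, 0 of the 10 rose and 2 fell at 5 nM, HSPA8 by 0.37 and HSF1 by 0.21, and HSP90AA1 turned to −0.05. Over all genes that centring changed the share of higher genes among those that passed to 23.7%, against 56.9% as deposited, and it moved the all-gene median to −0.16. Leaving out the first 5 nM array left 2 rises, HSPB1 and BAG3, with CRYAB at 0.30 (adjusted p = 0.143), DNAJB1 at 0.23 (adjusted p = 0.0622) and HSP90AA1 at 0.18 (adjusted p = 0.072). CRYAB was also lost without the first DMSO array (0.34, adjusted p = 0.156) and HSP90AA1 without the second (0.20, adjusted p = 0.0836) or with only the 4 arrays compared (adjusted p = 0.0928). Without the second DMSO array HSPB8 passed (0.49, adjusted p = 0.0339).

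At 50 nM against DMSO, DNAJB1, BAG3, HSPA8 and HSPH1 fell and HSF1 rose, against 23.3% of all genes lower and 25.8% higher. The same 4 genes fell with either centring on ribosomal protein genes, by 1.11, 0.71, 0.46 and 0.37 for DNAJB1, BAG3, HSPA8 and HSPH1 on the median ribosomal protein level. On that centring 24.3% of the genes that passed were higher, against 52.5% as deposited. HSPH1 did not pass without the second DMSO array (−0.17, adjusted p = 0.128) or without the first (−0.21, adjusted p = 0.0915) or the second 50 nM array (−0.24, adjusted p = 0.0624), nor with only the 4 arrays compared (adjusted p = 0.0617), and without the second DMSO array CRYAB (0.53, adjusted p = 0.04) and HSPB8 (0.67, adjusted p = 0.0106) passed upwards. Of the 10 genes none passed the threshold of the study, over 2-fold with an adjusted p under 0.01, at either dose, which 2.64% of all genes passed upwards and 7.86% downwards at 5 nM, and 0.598% upwards and 5.38% downwards at 50 nM.

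**Figure D2:**
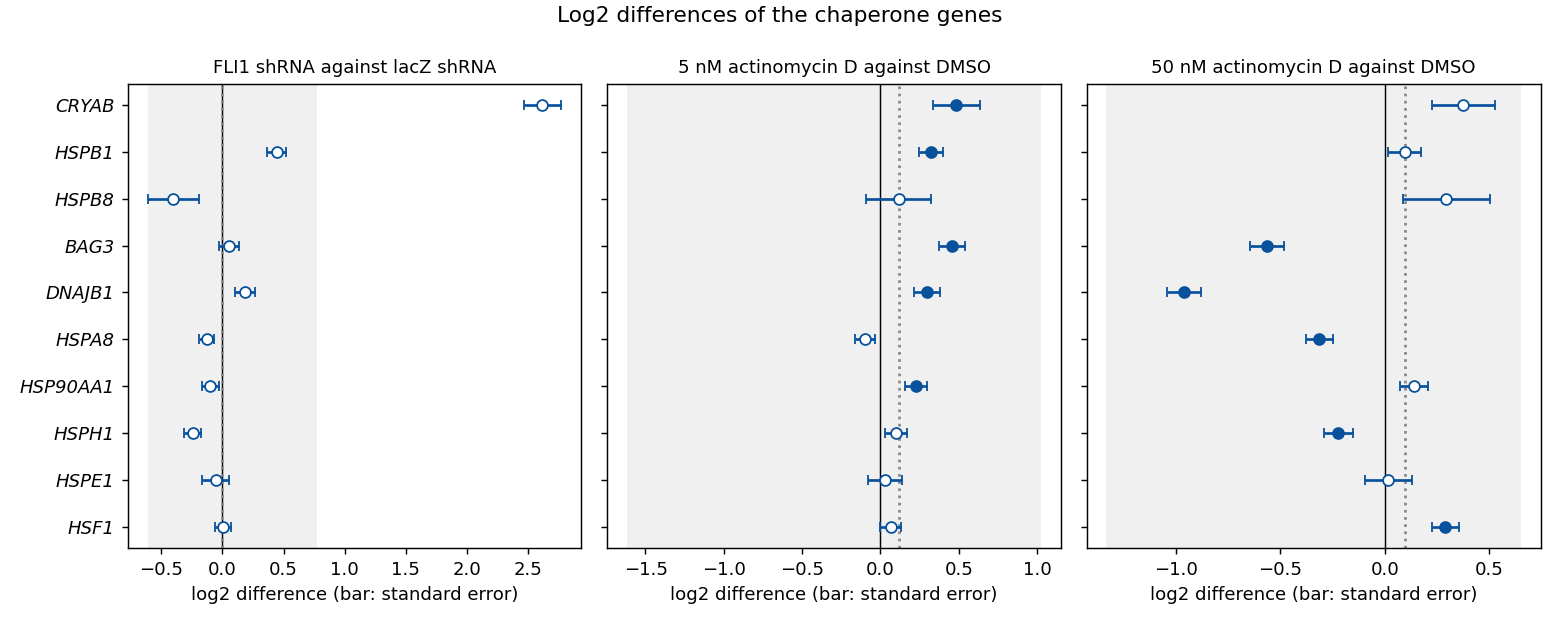
Log2 differences (x axis, bars are standard errors) of the 10 chaperone genes for FLI1 shRNA against lacZ shRNA and for each dose of actinomycin D against DMSO. Filled points passed an adjusted p under 0.05, the first panel has no test, the grey band spans the middle 95% of all genes and the dotted line is their median. CRYAB alone leaves the band after FLI1 shRNA, at 2.62, and no gene leaves it at either dose, where the 5 nM rises do not pass with ribosomal protein centring.

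**Figure D3:**
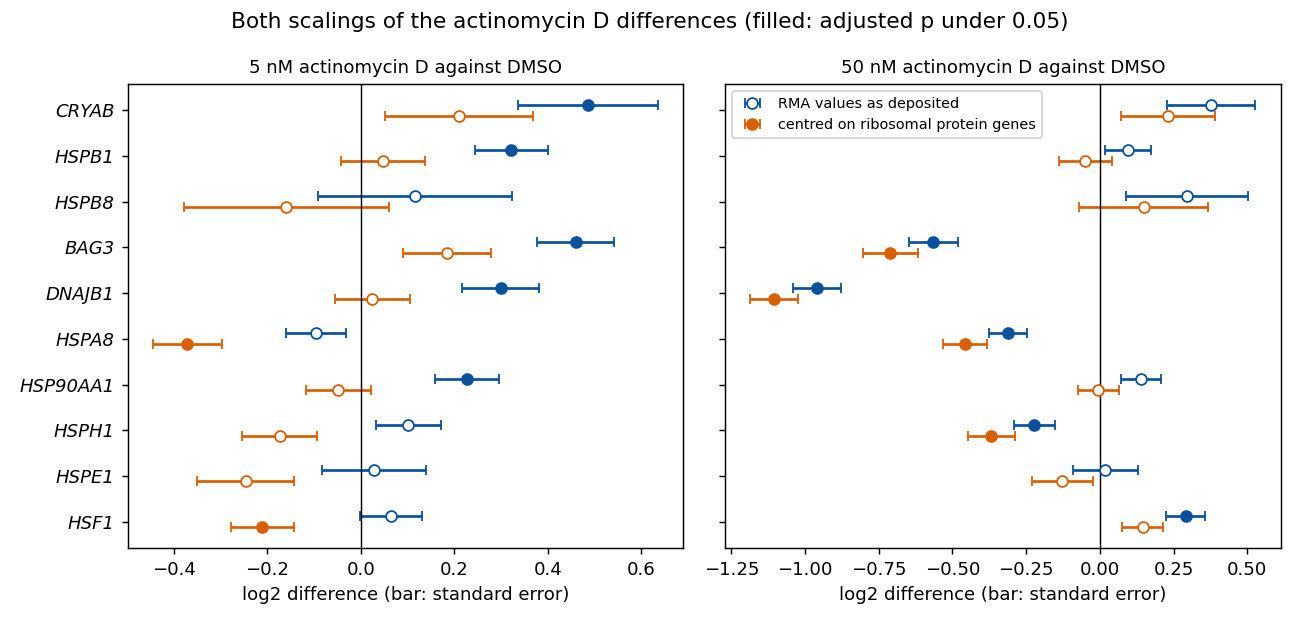
Log2 differences from DMSO (x axis, bars are standard errors) of the 10 genes at each dose, from values as deposited (blue) and with each array centred on the median level of 58 ribosomal protein genes (orange), filled where the adjusted p was under 0.05. The 5 filled rises at 5 nM lose their fill when centred and HSP90AA1 moves to −0.05, whereas DNAJB1, BAG3, HSPA8 and HSPH1 stay filled and below 0 at 50 nM.

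Set directly against each other, the doses differed most for DNAJB1 and BAG3. As deposited, RNA of both was lower at 50 nM than at 5 nM by more than 2-fold. The difference between 50 nM and 5 nM was −1.26 for DNAJB1 (SE 0.08, adjusted p = 3.55e-07), 2.39-fold lower, and −1.02 for BAG3 (SE 0.08, adjusted p = 1.54e-06), 2.03-fold lower. HSPH1 was lower by 0.32 (SE 0.07, adjusted p = 0.00273), HSPB1 by 0.23 (SE 0.08, adjusted p = 0.0365) and HSPA8 by 0.22 (SE 0.06, adjusted p = 0.0177). HSF1 was higher by 0.23 (SE 0.07, adjusted p = 0.0163). That made 5 genes lower and 1 higher, against 23.1% and 21.6% of all genes. Of all genes that passed between the doses 48.3% were higher, against 63.5% with centring on the median ribosomal protein level.

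As deposited, DNAJB1 and BAG3 were also the genes that passed the threshold of the study in this contrast. Over all genes 4.33% passed it upwards and 6.65% downwards. The contrast does not involve the DMSO arrays. Both genes, and HSF1 upwards, held with either centring on ribosomal protein genes, where DNAJB1 differed by −1.13 and −1.19 and BAG3 by −0.89 and −0.95. HSPB1 and HSPA8 were lost with either centring, and HSPH1 with centring on the median level (−0.19, adjusted p = 0.0664). HSPB1 did not pass without any 1 of the 4 arrays (adjusted p = 0.0724 to 0.137), HSPA8 without the second 5 nM array or either 50 nM array (0.0607 to 0.0651), and HSF1 without the second 5 nM array (0.0574) or the first 50 nM array (0.0812). With only the 4 arrays compared, HSPB1, HSPA8 and HSF1 did not pass (0.11 to 0.122).

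CRYAB, HSPB8, HSP90AA1 and HSPE1 did not pass between the doses. Their differences were −0.11 (SE 0.15), 0.18 (SE 0.21), −0.09 (SE 0.07) and −0.01 (SE 0.11), sizes that 2 arrays a group leave loosely bounded. For HSPE1 the 5 nM arrays, at 9.56 and 9.27, lay on either side of both 50 nM arrays.

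Genes of the same pathways moved with dose in part. Of the 21 other genes that heat induces through HSF1, 12 rose and 2 fell at 5 nM, against 6 and 8 with centring on ribosomal protein genes. The largest rises, which passed with either centring, were in RGS2, a regulator of G-protein signalling (1.93, SE 0.07, adjusted p = 8.22e-09), DNAJB4 (1.43, SE 0.09) and IER5, an immediate-early gene whose protein binds HSF1 (1.31, SE 0.07). HSPA4, an HSP110 relative, fell by 0.68 (SE 0.08) and CHORDC1 by 0.51 (SE 0.10). At 50 nM 4 rose and 5 fell, against 3 and 6 with centring on the median level and 3 and 10 on deviations, with RGS2 at 1.01 and IER5 at 0.45 above DMSO and DEDD2, which carries a death-effector domain, at −1.20 (SE 0.10, adjusted p = 4.51e-06).

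Between the doses 10 of these 21 heat-inducible genes were lower at 50 nM and 1, HSPA4, was higher, with a median of −0.22 against 0.02 over all genes. With the 2 centrings the counts were 5 lower and 4 higher, and 8 lower and 2 higher. DEDD2 was lower by 1.83 (SE 0.10, adjusted p = 1.09e-07), DNAJB4 by 1.17 (SE 0.09) and MRPL18, a mitochondrial ribosomal protein, by 0.96 (SE 0.07), all with either centring too.

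Among other partners of HSP70, 5 of 8 BAG proteins and cofactors rose at 5 nM and 1 fell, against 2 and 2 or 2 and 3 with the centrings. BAG1 rose by 0.79 (SE 0.10) and BAG4 fell by 0.30 (SE 0.08). At 50 nM all 8 passed, 4 upwards and 4 downwards, against 2 and 4 with centring on the median level and 1 and 4 on deviations. BAG2, which blocks the ubiquitin ligase CHIP, fell by 1.35 (SE 0.09, adjusted p = 6.86e-07). Between the doses 5 of the 8 were lower and 0 higher, also with either centring, led by BAG2 (−1.40, SE 0.09), BAG5 (−0.97, SE 0.12) and BAG4 (−0.67, SE 0.08), with a list median of −0.51. Of 9 other HSP70 and HSP110 genes 3 rose and 1 fell at 5 nM, against 2 and 4 with either centring. Among them HSPA2, which is best known from the testis, rose by 2.16 at 5 nM (SE 0.10, adjusted p = 3.12e-08) and by 0.87 at 50 nM (SE 0.10, adjusted p = 4.67e-05).

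Of 5 other small heat-shock proteins 3 rose at 5 nM, HSPB6 by 0.80 (SE 0.10), HSPB3 by 0.54 (SE 0.16) and ODF1 by 0.30 (SE 0.09), of which HSPB6 alone passed with centring. Of 8 heat-shock factors and binding partners 3 rose at 5 nM and 1 fell, and between the doses 4 were lower and 0 higher, also with either centring. EP300, an acetyltransferase that acts on HSF1, fell at both doses, with differences of −1.33 at 5 nM (SE 0.06, adjusted p = 4.51e-08) and −1.81 at 50 nM (SE 0.06, adjusted p = 4.79e-08). DAXX, another HSF1 partner, rose by 1.26 at 5 nM (SE 0.09) and fell by 0.61 at 50 nM (SE 0.09), as BAG3 and DNAJB1 did on the deposited scale.

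The remaining chaperone lists split. Of 15 other J-domain proteins of cytosol and nucleus 4 rose and 6 fell at 5 nM, against 2 and 9 with either centring. At 50 nM 2 of them rose and 5 fell, against 1 and 6 on the median level and 1 and 9 on deviations. Between the doses 3 were higher and 6 lower, against 3 and 4 on the median level and 3 and 6 on deviations. In the endoplasmic reticulum 7 of 16 rose and 4 fell at 5 nM, against 2 and 7 when centred, with DNAJB9, a J-domain partner of HSPA5, up by 1.57 (SE 0.12) and DNAJC3 down by 0.87 (SE 0.13). Of 12 mitochondrial chaperones 4 rose and 6 fell at 5 nM, against 2 and 8 when centred, and GRPEL1, the exchange factor of mitochondrial HSP70, rose by 0.94 (SE 0.07) while DNAJA3, its J-domain partner, fell by 0.82 (SE 0.08). Of 15 chaperonin subunits and prefoldins 5 rose and 1 fell at 5 nM, against 1 and 8 when centred, with PFDN5 up by 0.75 (SE 0.08) and PFDN1 down by 0.68 (SE 0.08). HSP90 and its co-chaperones gave 3 rises and 3 falls among 11 genes at each dose, against 1 and 5 at 5 nM with either centring. At 50 nM they gave 1 rise and 4 falls on the median level, and 1 and 7 on deviations.

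**Figure D4:**
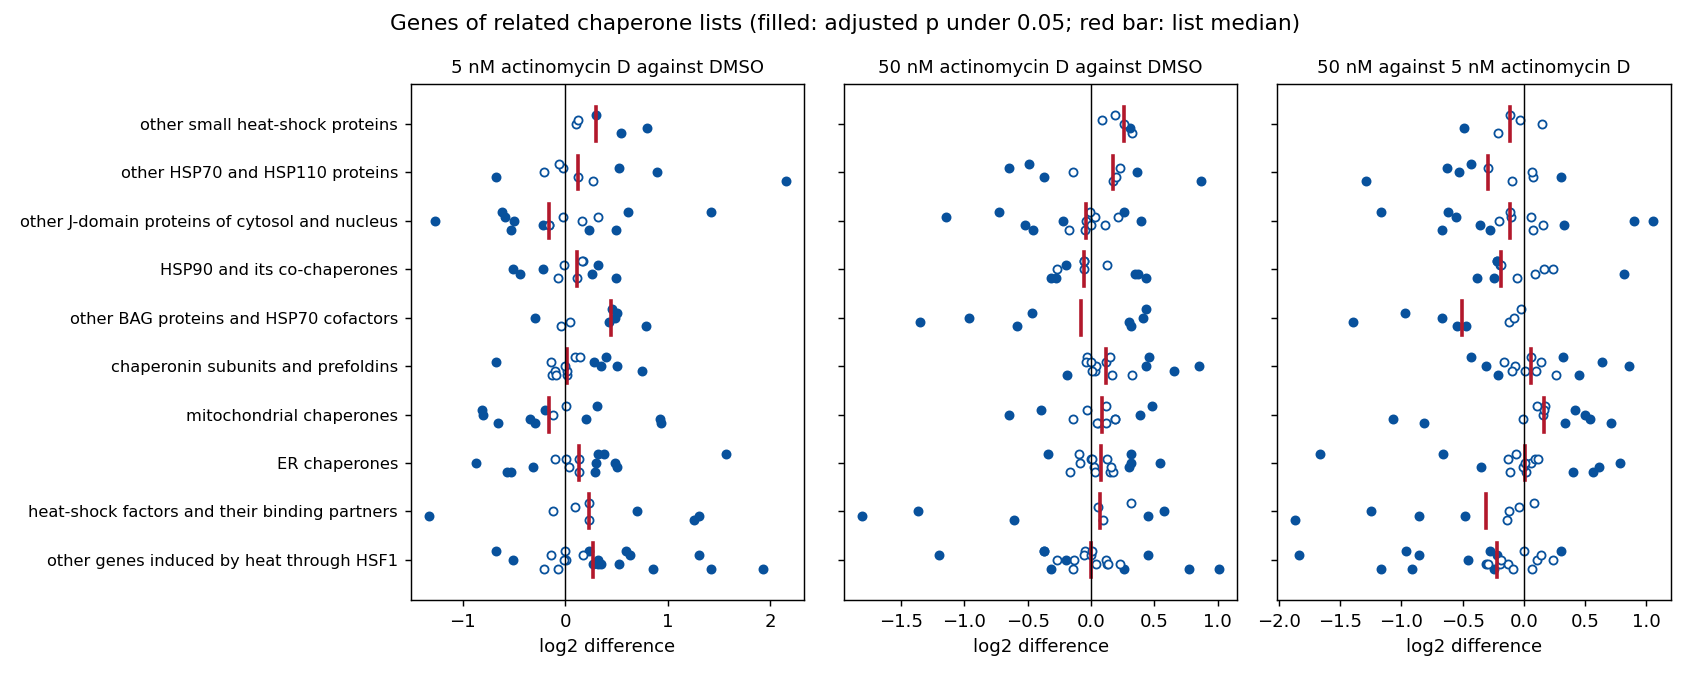
Log2 differences (x axis) of the genes in 10 related lists (rows) at 5 nM and 50 nM actinomycin D against DMSO and at 50 nM against 5 nM, as deposited. Points are genes, filled where the adjusted p was under 0.05, and red bars are list medians. The BAG proteins and HSP70 cofactors have 5 filled points below 0 and 0 above it between the doses, while the 12 filled rises of the heat-inducible genes at 5 nM drop to 6 with ribosomal protein centring.

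As deposited, few genes passed between the control groups. None of the 10 genes passed with DMSO against untreated cells (limma, 0 higher and 1 lower at an unadjusted p under 0.05). Over all genes 0.00543% rose and 0% fell. The lower gene was CRYAB, at 5.63 and 5.92 with DMSO, against 6.28 and 5.93 in untreated cells (−0.33, SE 0.15). That DMSO mean was the lowest of CRYAB in any group, and the rise of CRYAB at 5 nM was measured against it.

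None of the 10 passed with lacZ shRNA against untreated cells either (limma, 0 higher and 3 lower at an unadjusted p under 0.05). Over all genes 0.815% rose and 2.26% fell. Of those that passed 26.5% were higher, against 2.71% with centring on the median ribosomal protein level. On that centring 89 genes rose and 3193 fell, against 150 and 416 as deposited and 157 and 570 on deviations. The 3 lower genes were BAG3 (−0.27, SE 0.08), DNAJB1 (−0.31, SE 0.08) and HSF1 (−0.21, SE 0.07). For BAG3 and DNAJB1 the size exceeded their differences of 0.05 and 0.18 after FLI1 shRNA. Both lacZ shRNA arrays lay below both untreated arrays for each of the 3. All 3 passed when dim genes were left out (adjusted p = 0.0456, 0.0259 and 0.0407 for BAG3, DNAJB1 and HSF1) or with a trend and robust estimation. These 2 groups differ in virus, puromycin and time of harvest, which cannot be told apart here.

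The spread of group means was described for each of the 10 genes, with no span over all genes beside it. The group means of CRYAB spanned 3.06 log2 units, those of DNAJB1 1.26, those of BAG3 1.02 and those of HSPB1 0.56, and the other 6 genes spanned less than 0.50. The span of CRYAB rests on the FLI1 shRNA group, whose rise was known when the list was drawn up. Its means in the other groups ran from 5.77 to 6.26. For DNAJB1 the order was 50 nM, lacZ shRNA, FLI1 shRNA, untreated, DMSO and 5 nM, in which only untreated and DMSO cells had overlapping arrays. BAG3 had the same lowest 3 and the same highest group, and there too only the neighbours DMSO and untreated overlapped. For CRYAB the 4 groups between DMSO and FLI1 shRNA overlapped from each to the next.

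Among 9194 genes with a mean above the median of all genes, those most like CRYAB over the 12 arrays were CD44, the hyaluronan receptor (Pearson r = 0.98), the growth factor TGFB2 (0.98) and the thrombin receptor F2RL2 (0.98). Those most like DNAJB1 were CDK9, the kinase of the elongation factor P-TEFb (0.98), ZNF57 (0.98) and the histone methyltransferase KMT2B (0.98). The 12 points fall in 6 groups of 2 and share treatment and array normalization, so these values describe likeness and carry no test. The values for CRYAB rest largely on the FLI1 shRNA group, where it read 8.79 and 8.88, against at most 6.44 elsewhere. They say little about likeness across the other groups.

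HSPB2, whose gene lies next to CRYAB, and the inducible HSP70 genes HSPA1A and HSPA1B had only probe sets annotated with 2 symbols, and no value is given for them. HSPB1, HSPA8, HSP90AA1 and HSPE1 have processed pseudogenes, and the probes were not checked against those copies.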

How the data were processed

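RNA of A673 cells was hybridized to 12 Affymetrix HuGene 1.0 ST arrays, 2 for each of 6 groups taken from the sample labels. The deposited log2 values were background-corrected and RMA-normalized by the authors with the affy package, and 0 value columns lacked a sample. Of 32321 rows, the platform annotation pairs 19158 with 1 gene symbol, 1388 with several and 11775 with none. Rows with 1 symbol were used, and the probe set with the highest mean stood for each of 637 genes with several, which left 18404 genes. No raw scans were analysed here, and the number of arrays limits precision.

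Group means were fitted to all 12 arrays in R 4.3.3 with limma 3.58.1 (6 residual and 4.45 prior degrees of freedom), and p-values were adjusted by Benjamini-Hochberg over all genes of a comparison. A gene rose or fell at an adjusted p under 0.05. Errors are limma standard errors. The fit was tested on simulated data. Alternatives were the replicate number as a block, leaving out dim genes (those under the 40th percentile), a fit to only the 4 arrays compared, the mean over probe sets, centring on 58 ribosomal protein genes (median level, or, added after seeing the data, median deviation), a trend with robust estimation, and each array left out.

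The members and gene lists were chosen with earlier results of these data known. Named genes are all members and, of each list described, up to 3 past the threshold in each direction. The genes most like CRYAB and DNAJB1 were the 3 with the highest Pearson r. Promoter windows come from RefSeq (GRCh38.p14).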

Additional observations from a re-analysis of the deposited data

Results flagged for a closer look

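Of the 10 genes, BAG3, DNAJB1 and HSPH1 had effects of opposite sign at the 2 doses of actinomycin D, and the direct test of 50 nM against 5 nM passed for each. BAG3 stood 0.46 above DMSO at 5 nM and 0.56 below it at 50 nM, a difference between the doses of −1.02 (SE 0.08, adjusted p = 1.54e-06, limma). DNAJB1 stood 0.30 above DMSO at 5 nM and 0.96 below it at 50 nM, a difference of −1.26 (SE 0.08, adjusted p = 3.55e-07). HSPH1 differed from DMSO by 0.10 at 5 nM, which did not pass, and by −0.22 at 50 nM, a difference of −0.32 (SE 0.07, adjusted p = 0.00273). The differences between doses use no DMSO array. With arrays centred on ribosomal protein genes, BAG3 stayed 0.18 or 0.17 above DMSO and DNAJB1 0.02 or 0.01 above it at 5 nM, none of which passed, and both stayed below DMSO at 50 nM. HSPH1 turned negative at 5 nM with either centring. The difference between the doses passed with either centring for BAG3 and DNAJB1, and for HSPH1 it did not pass with centring on the median level. The cause was not tested.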

How the results depend on the processing

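Directions of most member values held under the alternatives, and those that turned were differences of at most 0.30 as deposited. With centring on the median ribosomal protein level, the differences at 5 nM against DMSO became −0.16 for HSPB8, −0.048 for HSP90AA1, −0.17 for HSPH1, −0.25 for HSPE1 and −0.21 for HSF1, those at 50 nM against DMSO −0.049 for HSPB1, −0.0053 for HSP90AA1 and −0.13 for HSPE1, those of 50 nM against 5 nM 0.021 for CRYAB, 0.043 for HSP90AA1 and 0.12 for HSPE1, and that of FLI1 shRNA against lacZ shRNA 0.0055 for HSPE1. With centring on ribosomal protein deviations, which was chosen after seeing the data, they became at 5 nM −0.17 for HSPB8, −0.061 for HSP90AA1, −0.19 for HSPH1, −0.26 for HSPE1 and −0.22 for HSF1, at 50 nM −0.12 for HSPB1, −0.075 for HSP90AA1 and −0.20 for HSPE1, and for 50 nM against 5 nM 0.063 for HSPE1. The median-level and deviation centrings moved the median of all genes to −0.16 and −0.17 at 5 nM, −0.05 and −0.12 at 50 nM, 0.15 and 0.09 between the doses, and −0.15 and −0.04 for DMSO and −0.16 and −0.02 for lacZ shRNA against untreated cells. The median-level centring also shifted the ribosomal protein genes themselves. Their median difference was then 0.06 for FLI1 shRNA against lacZ shRNA, 0.01 at 5 nM, 0.09 at 50 nM and 0.05 between the doses. It was −0.10 for DMSO and −0.16 for lacZ shRNA against untreated cells, and 0.01 and −0.02 for these on deviations. The share of higher genes among those that passed was 22.8% at 5 nM, 15.9% at 50 nM and 56.6% between the doses on deviations.

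Counts of the 10 genes moved as follows. At 5 nM, 0 rose with either centring, 2 fell on the median level and 3 on deviations, and 1, HSPA8, fell with a trend and robust estimation. At 50 nM, 0 rose with either centring, 3 with a trend and robust estimation and 2 with only the 4 arrays compared. Between the doses, 2 were lower on the median level, 3 on deviations, and 3 lower with 0 higher with only the 4 arrays. For lacZ shRNA against untreated cells, 3 were lower without dim genes, 4 on the median level, 1 on deviations (DNAJB1) and 3 with a trend and robust estimation. The cause was not tested. Without dim genes CRYAB and HSPB8 have no value, and averaging probe sets left the values of the 10 genes as they were, since each has 1.

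Leaving out 1 array at a time gave 2 to 5 rises at 5 nM and 1 to 3 at 50 nM, 3 to 4 lower and 0 to 1 higher genes between the doses, and 0 calls in both control comparisons. The differences ranged from −0.14 to 0.025 for HSPE1 and from −0.027 to 0.034 for HSF1 after FLI1 shRNA, from −0.26 to 0.49 for HSPB8 and from −0.12 to 0.18 for HSPE1 at 5 nM, from −0.081 to 0.67 for HSPB8 and from −0.069 to 0.11 for HSPE1 at 50 nM, and from −0.29 to 0.073 for CRYAB and from −0.16 to 0.14 for HSPE1 between the doses. The first DMSO array alone turned HSPB8 at both doses when left out.

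The labels do not say that replicate numbers pair arrays. Deviations of same-numbered arrays correlated at −0.17, 0.17, 0.05, 0.10, −0.26 and −0.45 in the 6 comparisons. With the replicate number as a block 5 genes rose and 0 fell at 5 nM, and 1 rose and 4 fell at 50 nM. Between the doses 1 was higher and 5 lower, and 0 passed in the control comparisons. No call of the 10 genes changed with the block.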
